A study of Mus musculus with 6 samples.

Results

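The Kruppel-like factors (KLFs) are DNA-binding proteins that carry 3 zinc fingers at or near the C-terminus and recognize GC-rich and CACCC-type elements in promoters. Of the 10 *Klf* genes described here (*Klf2*, *Klf3*, *Klf4*, *Klf5*, *Klf6*, *Klf7*, *Klf9*, *Klf10*, *Klf13* and *Klf15*), all 10 were present among the 12353 genes of the expression table, and each was above 1 FPKM in every library. FPKM are sequenced fragments scaled for transcript length and library depth, so that levels of different genes can be set side by side. The table comes from mRNA sequencing of the gastrocnemius, a calf muscle built mostly of fast-twitch fibers, from 3 Nogo+/+ mice (wild-type, Samples 1 to 3) and 3 Nogo-/- mice (Nogo KO, Samples 4 to 6). The Nogo-/- mice carry a knockout of *Rtn4*, the gene of the neurite outgrowth inhibitor Nogo, with no tissue-specific driver named, and no injury or drug is named for either group. Age, sex and the hour at which the muscles were taken are not given for these 6 mice in the sources used here.

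KLFs are usually sorted by where and how they act. KLF2 and KLF4 are induced in endothelial cells by laminar blood flow, through the kinases MEKK2, MEKK3, MEK5 and ERK5 and the MEF2 factors. KLF9 and KLF15 are direct targets of the glucocorticoid receptor, and KLF15 drives the breakdown of branched-chain amino acids in muscle. KLF10 is an early target of TGF-beta, KLF6 and KLF7 form a closely related pair, and KLF3, KLF9 and KLF13 act largely as repressors through the co-repressors CtBP or Sin3.

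A total of 5 of the 10 members rose in the Nogo-/- muscles, namely *Klf2*, *Klf4*, *Klf6*, *Klf9* and *Klf15*, 0 fell and 5 did not pass the test (limma on the log2 scale, adjusted p under 0.05 over 12353 genes). Of all genes measured, 4.64% passed, 1.89% as higher (233 genes) and 2.75% as lower (340 genes). Without quantile normalization the same 5 members passed, and 302 genes were higher and 234 lower. With 1 library left out, between 1 and 4 members passed, the fewest (*Klf6* alone) without Sample 3, where 84 genes of the table passed as higher and 108 as lower. Over the 6 omissions these all-gene counts were 83 to 196 higher and 105 to 238 lower. At an unadjusted p under 0.05 there were 6 members, with *Klf10* added as lower in the mean, against 20.5% of all genes. In 6 members every Nogo-/- library was above every Nogo+/+ library, as in 15.9% of all genes, and in 4 the groups overlapped. The sixth, *Klf5*, was apart on the FPKM as deposited and overlapped on the quantile-normalized scale of the test. Groups that did not overlap, in either direction, were found in 25.9% of all genes. The median log2 difference of the 10 members was 0.27, and that of all genes was -0.01. The FPKM of the 10 members summed to between 89.2 and 91.5 in the Nogo+/+ libraries and to between 126 and 143 in the Nogo-/- libraries. Because the muscle was sequenced whole, more cells of a type and more RNA per cell cannot be told apart for any of these genes.

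**Figure D1:**
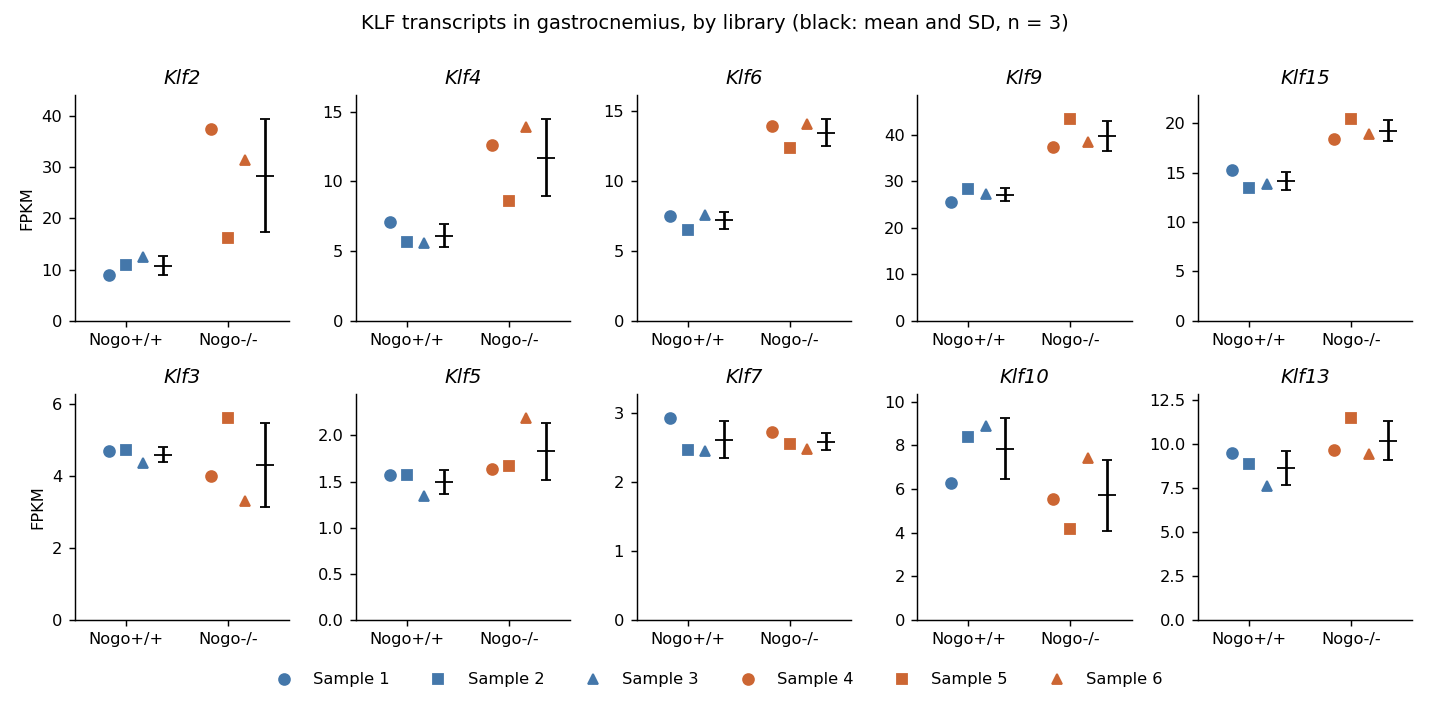
FPKM (vertical axes, each from 0) of the 10 KLF genes in the 3 Nogo+/+ libraries (blue) and the 3 Nogo-/- libraries (orange), with the mean and SD of each group in black and marker shapes that only name libraries. The groups are apart in the 5 genes of the upper row and in *Klf5*, where the gap is narrow (1.58 against 1.63 FPKM), and Sample 5 is the lowest orange point in *Klf2*, *Klf4* and *Klf6* and the highest in *Klf9* and *Klf15*.

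*Rtn4* itself, the targeted gene, was between 414 and 429 FPKM in the Nogo+/+ libraries and between 0.312 and 0.423 FPKM in the Nogo-/- libraries, so each library matched its genotype. Depth, recovered from the steps of low FPKM values, was about 13488000 to 14454000 fragments per library. The tissue matched its label, since 10 skeletal muscle markers summed to between 30437 and 33063 FPKM in all 6 libraries. Skin epithelium markers stood apart in 1 library. The 12 of them, keratins among them, summed to 293 FPKM in Sample 6 (Nogo-/-) and to between 10.2 and 23.3 FPKM in the other 5, with 5 of the 12 listed at 0 in at least 1 library. Results in *Klf4* and *Klf5*, which are abundant in skin, are therefore given with and without Sample 6.

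Promoter sequence is shown for the members that rose, where a short motif was found in the 300 bases around the RefSeq start site (250 before and 50 after, GRCm38.p6). RefSeq promoters were found for 8 of the 10 members, with *Klf5* and *Klf10* not among them. The E-box CACGTG, the element bound by CLOCK and BMAL1, was present in 3 of the 8, those of *Klf4*, *Klf6* and *Klf15*, and in 7.2% of all 32851 promoters of this length. Of the 8 members with a promoter 5 rose, and *Klf2* and *Klf9* rose with no E-box in the window. Positions count the start site as 0, and capitals mark the E-box, or in *Klf2* the MEF2 motif.
Klf15, chr6:90462326-90462585, + strand, 3 E-boxes at -228, -172 and -3: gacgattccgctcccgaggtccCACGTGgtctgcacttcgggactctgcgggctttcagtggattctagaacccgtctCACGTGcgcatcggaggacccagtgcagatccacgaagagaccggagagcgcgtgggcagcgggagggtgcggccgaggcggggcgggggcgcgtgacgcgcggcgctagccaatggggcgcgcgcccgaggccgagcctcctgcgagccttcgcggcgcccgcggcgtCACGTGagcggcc
Klf6, chr13:5861418-5861477, + strand, 1 E-box at -43: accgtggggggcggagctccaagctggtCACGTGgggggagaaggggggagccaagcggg
Klf4, chr4:55532626-55532685, - strand, 1 E-box at -182: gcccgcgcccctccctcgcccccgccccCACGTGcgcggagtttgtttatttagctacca
Klf2, chr8:72318918-72318977, + strand, MEF2 motif from -118 to -109: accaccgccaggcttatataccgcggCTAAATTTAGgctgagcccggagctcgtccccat

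The MEF2 motif was found in the promoter of *Klf2* and in no other of the 8, and in 3.7% of all promoters. The glucocorticoid receptor motif AGAACA (19% of all promoters), the nuclear receptor motif AGGTCA (16.3%), the D-box in the forms TTATGTAA and TTATGCAA (1.7%) and the cAMP response element TGACGTCA (1.8%) had no match in the 8 windows on either strand. CACCC, the core of the element that KLFs themselves bind, was found in 6 of the 8 promoters and in 57.5% of all. The 8 promoters were rich in G and C, at 58.3% to 76.7% against a median of 52.7% over all promoters. These matches describe the letters of the windows and not occupancy by any factor.

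*Klf2*, which keeps the endothelium quiescent and anticoagulant, had the largest difference of the family. Its level was 8.86, 10.9 and 12.6 FPKM in the Nogo+/+ libraries and 37.6, 16.2 and 31.4 FPKM in the Nogo-/- libraries. The groups did not overlap, and Sample 5 lay closer to the highest Nogo+/+ library than to the other Nogo-/- libraries. The mean was 10.8 ± 1.85 FPKM (SD, n = 3) in Nogo+/+ and 28.4 ± 11.01 FPKM (SD, n = 3) in Nogo-/-, a log2 difference of 1.20 (SE 0.27, 95% interval 0.58 to 1.83, limma adjusted p = 0.0448). *Klf2* is annotated with 1 transcript of 1847 bases, so that its FPKM can be read back as about 227, 270 and 334 fragments in Nogo+/+ and 963, 432 and 799 in Nogo-/-. The counting error of these numbers, 3.22% to 6.64%, was far below the spread between the Nogo-/- mice, whose coefficient of variation was 38.8%. The call rested on every library but 1. It held without Sample 5 (log2 difference 1.56, adjusted p = 0.00185) and was lost when any of the other 5 was left out, with adjusted p-values of up to 0.149, as well as without the mean-variance trend of limma (0.0923) and with sample weights (0.0518).

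*Klf4*, a partner of KLF2 in endothelial cells and also a factor of epithelia and macrophages, followed the same order of libraries in part. Its level was 7.07, 5.67 and 5.58 FPKM in the Nogo+/+ libraries and 12.6, 8.59 and 13.9 FPKM in the Nogo-/- libraries. Sample 5 was again the lowest of the Nogo-/- libraries, and the groups did not overlap. The log2 difference was 0.78 (SE 0.16, 95% interval 0.40 to 1.16, adjusted p = 0.0378 in limma). Without Sample 6, the library with skin markers, it was 0.63 with an adjusted p of 0.0752. The call also ended without Samples 1, 2, 3 or 4 (adjusted p of up to 0.148) and without the trend (0.0761), and held without Sample 5 (0.00514). The zinc finger regions of KLF2 and KLF4 are identical in 91.4% of residues, and their transcripts were both higher, with a *Klf2* to *Klf4* ratio of 1.25, 1.92 and 2.25 in Nogo+/+ and 2.98, 1.88 and 2.26 in Nogo-/- (exact permutation test, two-sided, p = 0.4, adjusted over 3 pairs of members 0.4).

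Of 18 endothelial marker genes measured, 0 rose, 6 fell and 12 did not pass. Their log2 differences were below 0 in 12 and above 0 in 6, their median log2 difference was -0.27, and none was listed at 0. Those that fell were *Cldn5*, a tight junction protein (log2 difference -1.13, limma adjusted p = 0.000308), *Kdr*, the main VEGF receptor (-0.92, adjusted p = 0.00192), *Emcn*, *Cdh5*, *Pecam1* and *Tek*. *Cldn5* and *Kdr* kept their calls in all 6 fits that left out 1 library, *Emcn* and *Pecam1* in 2, and *Cdh5* and *Tek* in 1. The summed level of all 18 was 429 to 492 FPKM in Nogo+/+ and 353 to 424 FPKM in Nogo-/-. Expressed as a share of that sum, *Klf2* was at 1.80% to 2.84% in the Nogo+/+ libraries and at 3.84% to 8.91% in the Nogo-/- libraries, and *Klf4* at 1.26% to 1.44% and 2.04% to 3.94%. These shares could not overlap between the groups, because both genes were higher and the sum lower in every Nogo-/- library. They add no separate result to the levels. Smooth muscle and pericyte markers, another vascular set, had 0 higher, 2 lower (*Acta2* and *Pdgfrb*) and 8 not passed of 10, with sums of 323 to 336 FPKM in Nogo+/+ and 256 to 306 FPKM in Nogo-/-. Log2 differences in this set were below 0 in 9 and above 0 in 1, with a median of -0.31. In limma, 8 of the 10 had an unadjusted p under 0.05. With 1 library left out, *Acta2* kept its call in 2 of the 6 fits and *Pdgfrb* in 1.

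**Figure D2:**
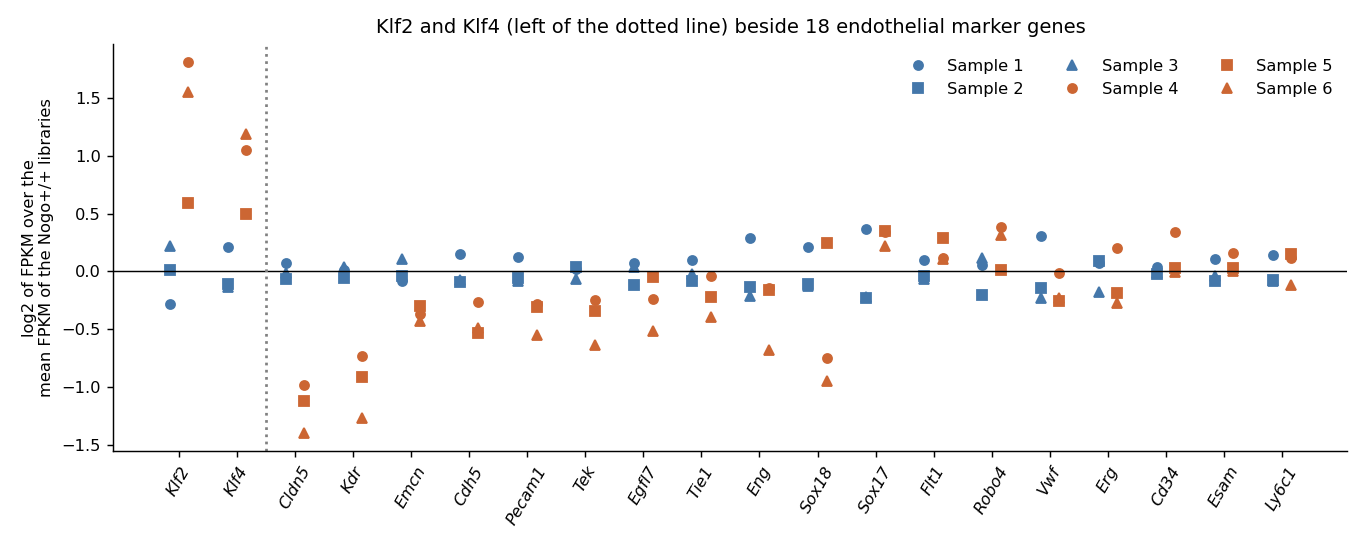
Each point is 1 library, as the log2 of its FPKM over the mean FPKM of the 3 Nogo+/+ libraries (blue, Nogo+/+; orange, Nogo-/-), for *Klf2*, *Klf4* and 18 endothelial marker genes ordered by p. The orange points of *Klf2* and *Klf4* are above 0 and those of *Cldn5* and *Kdr* are below it in all 3 Nogo-/- libraries.

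Around these factors, 22 genes of the upstream pathway and of the known targets of KLF2 and KLF4 were measured, of which 2 rose, 3 fell and 17 did not pass. With 1 library left out, 3 rose without Sample 5 and 1 without any other, and 2 fell without Sample 4 and 1 without any other. Beyond *Kdr*, which KLF2 is known to repress, and *Tek*, the angiopoietin receptor gene, the third gene to fall was *Map3k3*, the gene of MEKK3 (-0.31, adjusted p = 0.0431). *Map3k3* kept its call in no fit that left out 1 library. Those that rose were *Nfe2l2*, the gene of the antioxidant factor NRF2, which increased from 13.7 ± 0.749 to 21.0 ± 0.660 FPKM (log2 difference 0.54, adjusted p = 0.00281), and *Ccn2*, a matricellular protein gene (0.93, adjusted p = 0.0245). *Nos3*, the endothelial nitric oxide synthase and a classical KLF2 target, was at 6.66, 5.57 and 6.20 FPKM in Nogo+/+ and 7.04, 6.38 and 4.78 FPKM in Nogo-/- (-0.07, adjusted p = 0.786). *Thbd*, the thrombomodulin gene and another such target, gave -0.16 (adjusted p = 0.474), and *Edn1*, which KLF2 represses, gave -0.58 with an adjusted p of 0.0502.

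*Klf6*, induced early after injury in many tissues, had the most stable difference. It was at 7.50, 6.48 and 7.59 FPKM in the Nogo+/+ libraries and at 13.9, 12.4 and 14.1 FPKM in the Nogo-/- libraries. All 3 Nogo-/- values lay well above the Nogo+/+ range. The means were 7.19 ± 0.617 and 13.5 ± 0.962 FPKM (SD, n = 3 each), and the log2 difference was 0.78 (SE 0.08, 95% interval 0.59 to 0.97, limma adjusted p = 0.00171). It passed in all 6 fits that left out 1 library and in the 5 other settings tried, with adjusted p-values between 0.00122 and 0.0123.

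*Klf7*, the nearest relative of *Klf6* and best known from neurons, was at 2.92, 2.47 and 2.45 FPKM in Nogo+/+ and 2.72, 2.54 and 2.48 FPKM in Nogo-/-. The groups overlapped, with a log2 difference of -0.04 (95% interval -0.24 to 0.15, adjusted p = 0.810), and the sign turned without Sample 1 (0.0086). The *Klf6* to *Klf7* ratio within each library was 2.57, 2.63 and 3.10 in Nogo+/+ and 5.12, 4.86 and 5.69 in Nogo-/-, with no overlap (exact permutation test, two-sided, p = 0.1, the smallest that 3 mice against 3 allow, adjusted over 3 pairs 0.15). Given the ranges of both genes, these ratios could not overlap between the groups, and they add no separate result to the levels. The zinc finger regions of KLF6 and KLF7 differ in 4 residues of 81, and 197 of the 243 coding bases are identical. The stretch that holds their longest shared run, at the end of exon 3 and the start of exon 4 of 4 exons in each gene, is printed to show how far reads of the pair can be told apart. Capitals mark bases identical in both.
Klf6, chr13:5866741-5866762 and chr13:5867232-5867269, + strand, coding bases 884 to 943: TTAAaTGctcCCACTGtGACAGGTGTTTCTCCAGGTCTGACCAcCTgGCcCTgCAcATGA
Klf7, chr1:64042314-64042335 and chr1:64035727-64035764, - strand, coding bases 833 to 892: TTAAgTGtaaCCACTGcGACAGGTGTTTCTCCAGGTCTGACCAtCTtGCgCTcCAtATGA

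The shared run is 26 bases long, and no pair among the 10 members shared a longer one in the coding sequence. Across the 45 pairs the zinc finger regions, 81 residues in every member, were identical in 60.5% to 95.1% of residues with a median of 66.7%. The regions end 1 to 3 residues before the C-terminus in KLF2 to KLF7 and 13 to 39 residues before it in KLF9, KLF10, KLF13 and KLF15.

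**Figure D3:**
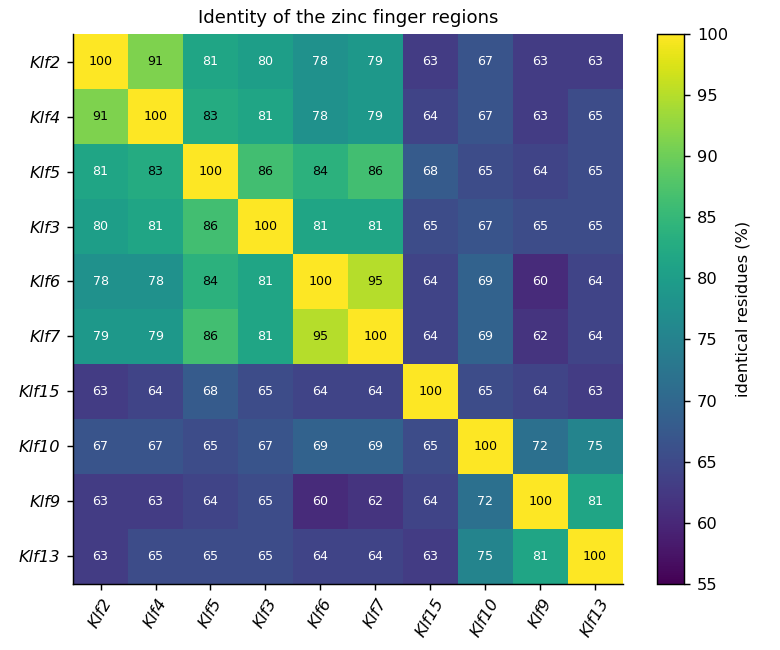
Identical residues (%) between the zinc finger regions of each pair of KLF proteins, as translated from the GENCODE coding sequences (color scale from 55% to 100%, whole percent in each cell). *Klf6* and *Klf7*, at 95.1%, and *Klf2* and *Klf4*, at 91.4%, are the most alike pairs.

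*Klf9*, a stress and thyroid hormone responsive repressor, had the highest mean level in both genotypes, although *Klf2* was just above it in Sample 4. Its level was 25.6, 28.4 and 27.3 FPKM in Nogo+/+ and 37.3, 43.3 and 38.4 FPKM in Nogo-/-. Here Sample 5 was the highest library, whereas it was the lowest of the Nogo-/- libraries in *Klf2*, *Klf4* and *Klf6*. The means were 27.1 ± 1.39 and 39.7 ± 3.22 FPKM (SD, n = 3 each), with a log2 difference of 0.47 (SE 0.08, 95% interval 0.30 to 0.64, limma adjusted p = 0.0124). It passed in 5 of the 6 fits that left out 1 library, and gave an adjusted p of 0.0618 without Sample 3.

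*Klf15*, the muscle regulator of branched-chain amino acid use, was at 15.2, 13.4 and 13.8 FPKM in Nogo+/+ and at 18.4, 20.4 and 18.9 FPKM in Nogo-/-. The groups did not overlap, and Sample 5 was again the highest. The log2 difference was 0.37 (SE 0.07, 95% interval 0.22 to 0.53, limma adjusted p = 0.0216). It passed in 2 of the 6 fits that left out 1 library, those without Samples 1 and 4, and gave adjusted p-values of up to 0.103 without Samples 2, 3, 5 or 6. *Klf13*, close to *Klf9* in the zinc fingers (81.5% identical), was at 9.48, 8.86 and 7.60 FPKM in Nogo+/+ and 9.65, 11.5 and 9.44 FPKM in Nogo-/-, with overlapping groups (0.16, 95% interval -0.06 to 0.39, adjusted p = 0.406, and 0.08 or 0.09 without Samples 3 or 5). The *Klf9* to *Klf13* ratio was 2.70, 3.20 and 3.60 in Nogo+/+ and 3.87, 3.78 and 4.07 in Nogo-/- (exact permutation test, two-sided, p = 0.1, adjusted over 3 pairs 0.15).

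**Figure D4:**
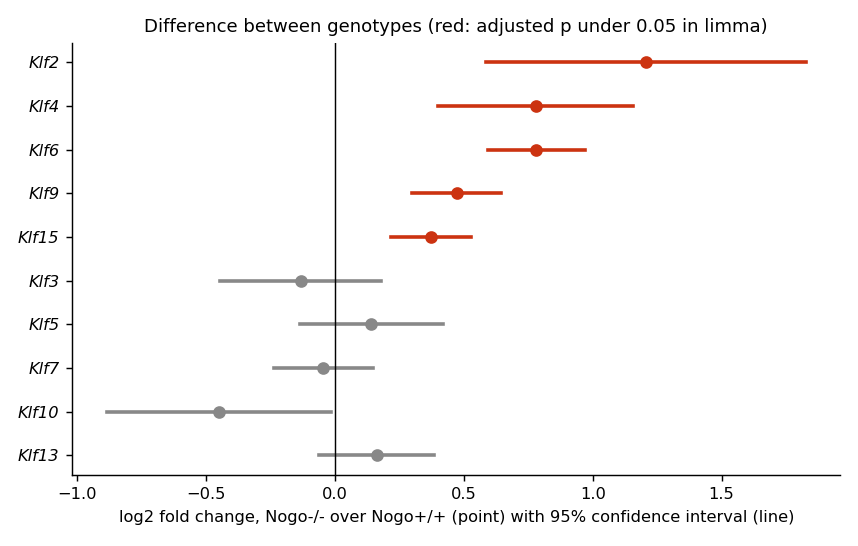
Log2 fold change of Nogo-/- over Nogo+/+ (points) with 95% confidence intervals (lines) from limma for the 10 KLF genes, in red where the adjusted p was under 0.05. The interval of *Klf2* (0.58 to 1.83) is the widest and that of *Klf15* (0.22 to 0.53) the narrowest.

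Of 26 measured genes of the glucocorticoid receptor and its targets, the set to which *Klf9* and *Klf15* belong, 9 rose, 3 fell and 14 did not pass, with a median log2 difference of 0.31. The number that rose was 5 without Samples 1, 2, 3 or 4, 11 without Sample 5 and 7 without Sample 6. Those that rose included *Per1* (2.01 ± 0.0841 to 28.1 ± 8.88 FPKM, log2 difference 3.18, limma adjusted p = 0.000162), *Cebpd* (1.40, adjusted p = 0.00051) and *Tsc22d3*, the gene of the glucocorticoid-induced leucine zipper (0.88, adjusted p = 0.00801). *Per1* is also counted among the clock genes below, and *Cebpd* among the fat cell factors. The atrophy ubiquitin ligase genes *Trim63* (-0.56, adjusted p = 0.000232) and *Fbxo32* (-0.85, adjusted p = 0.000301), also targets of the receptor, fell, as did *Pdk4*. *Fkbp5*, a sensitive target in many tissues, was at 10.4, 11.9 and 10.2 FPKM in Nogo+/+ and 10.9, 16.9 and 13.7 FPKM in Nogo-/- (0.26, adjusted p = 0.337). *Nr3c1*, the receptor gene itself, gave -0.19 (adjusted p = 0.150).

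Downstream of KLF15, 27 genes of branched-chain amino acid, alanine and fuel metabolism were measured. Of these 1 rose, *Gpt2*, the mitochondrial alanine aminotransferase (88.3 ± 4.93 to 114 ± 9.30 FPKM, log2 difference 0.32, adjusted p = 0.0390 in limma), 1 fell, *Pdk4*, which spares glucose by blocking pyruvate dehydrogenase (135 ± 9.63 to 107 ± 11.2 FPKM, -0.35, adjusted p = 0.0369), and 25 did not pass. None passed without Samples 2, 3, 4 or 6, and *Gpt2* was not called without Sample 1. The median log2 difference was 0.02. *Prodh*, the proline dehydrogenase gene and a KLF15 target, was at 4.74 FPKM in the mean of Nogo+/+ and 6.73 in that of Nogo-/- (0.40, adjusted p = 0.0627), and *Bcat2*, the mitochondrial branched-chain aminotransferase, gave 0.19 (adjusted p = 0.134).

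*Klf9*, *Klf10* and *Klf15* also oscillate with the circadian clock in several tissues. Of 19 clock genes measured, 10 rose, 5 fell and 4 did not pass, and with 1 library left out 9 or 10 rose and 4 to 6 fell. *Dbp*, an output of the clock, rose from 16.4 ± 1.08 to 154 ± 11.8 FPKM (log2 difference 3.11, limma adjusted p = 1.85e-07), and *Arntl*, the gene of BMAL1, fell from 15.2 ± 0.315 to 1.65 ± 0.479 FPKM (-2.67, adjusted p = 8.53e-06). *Per3*, a negative limb gene, rose by 1.96 (adjusted p = 1.45e-05). The part of the clock genes in the KLF differences was not tested.

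**Figure D5:**
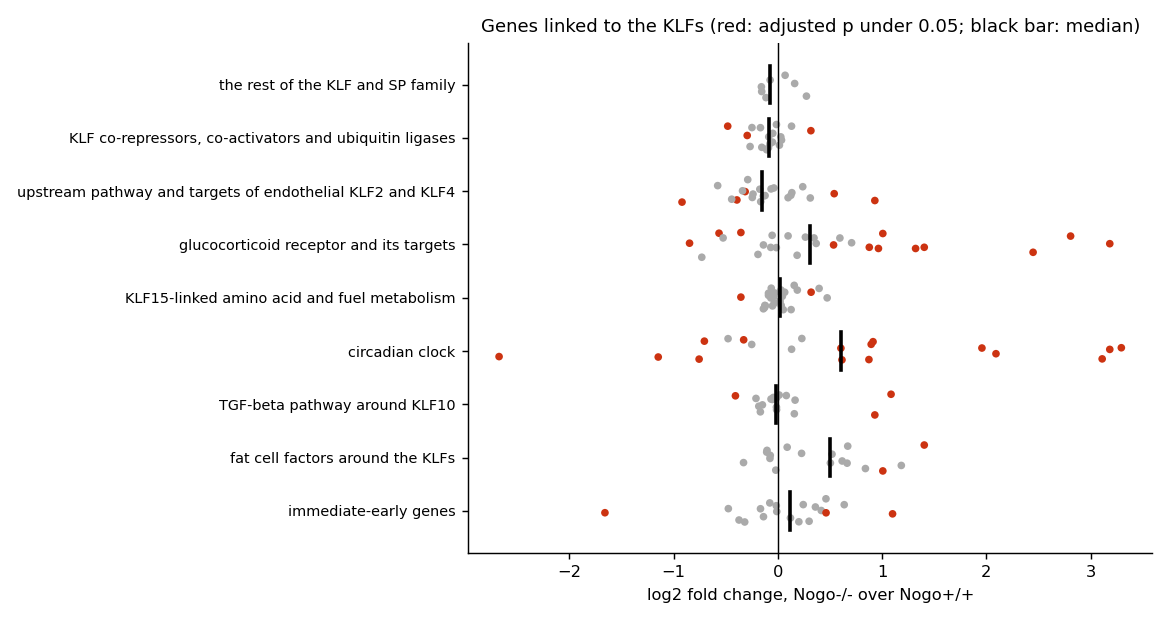
Log2 fold change of Nogo-/- over Nogo+/+ (horizontal axis) for the genes measured in each of 9 lists linked to the KLFs (1 point per gene, red where the limma adjusted p was under 0.05, vertical scatter without meaning), with the median as a black bar. The clock genes spread the widest, with 15 of 19 in red, and the genes linked to KLF15 the least among the lists with 20 or more genes, with 2 of 27 in red.

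*Klf10*, which restrains proliferation downstream of TGF-beta, was at 6.26, 8.37 and 8.90 FPKM in Nogo+/+ and at 5.53, 4.17 and 7.42 FPKM in Nogo-/-. The groups overlapped through Samples 1 and 6, and the difference did not pass over all genes (log2 difference -0.45, SE 0.19, 95% interval -0.89 to -0.02, limma adjusted p = 0.228). It was -0.28 without Sample 5, -0.60 without Sample 1 and -0.65 without Sample 6 (limma adjusted p = 0.0710), and passed in no omission. Of 17 other genes of the TGF-beta pathway, 2 rose, 1 fell and 14 did not pass, and without Samples 1, 2, 3, 4 or 6 none rose. *Smad3*, a signal transducer of the pathway, fell by 0.41 on the log2 scale (adjusted p = 0.0354). *Ccn2*, given above, was among those that rose and kept its call in 1 of the 6 fits that left out a library.

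*Klf5*, a factor of epithelia, smooth muscle and early fat cell differentiation, was the lowest member. It was at 1.58, 1.57 and 1.34 FPKM in Nogo+/+ and at 1.63, 1.67 and 2.19 FPKM in Nogo-/-, which corresponds to at most about 65 to 101 fragments per library on its longest transcript. Sample 6 was the highest, and the other Nogo-/- libraries lay just above the Nogo+/+ range. The log2 difference was 0.14 (95% interval -0.14 to 0.42, limma adjusted p = 0.577), and 0.03 without Sample 6 (adjusted p = 0.903). *Klf3*, a repressor that recruits CtBP and is expressed in muscle and fat, was at 4.72, 4.73 and 4.36 FPKM in Nogo+/+ and 4.0, 5.61 and 3.32 FPKM in Nogo-/-. Its Nogo-/- libraries lay on both sides of the Nogo+/+ range (log2 difference -0.13, 95% interval -0.45 to 0.18, adjusted p = 0.644), and the difference was -0.30 without Sample 5 and -0.02 without Sample 6.

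Several KLFs take part in fat cell differentiation, *Klf4*, *Klf5*, *Klf6*, *Klf9* and *Klf15* as activators and *Klf2* and *Klf3* as repressors. Of 17 fat cell factors measured beside them, 2 rose, *Cebpd* and *Cebpb* (1.01, limma adjusted p = 0.0141), 0 fell and 15 did not pass. The number that rose was 6 without Sample 6, the library with skin markers, and 1 without Samples 1, 2, 3 or 4. The 10 markers of mature fat cells had 0 calls, 9 positive log2 differences and a sum of 1683 to 1882 FPKM in Nogo+/+ and of 1727 to 2265 FPKM in Nogo-/-, with Sample 4 the highest, 7 of the 10 at an unadjusted p under 0.05, and none listed at 0. All of these 10 markers but *Retn*, *Lipe* and *Car3* are also among the 17 factors, so their counts are not separate from those above. *Car3* alone, at 1131 to 1378 FPKM per library, made up most of each sum, so the sums say little of the other markers. It was the only marker with a negative difference (-0.08) and is among the 7. The part of the fat cell genes in the KLF differences was not tested.

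KLFs act with shared partners, and *Klf2*, *Klf4*, *Klf6* and *Klf10* also respond within an hour to growth factors, serum or stress. Among 18 co-repressors, co-activators and ubiquitin ligases of the KLFs, 1 rose, *Fhl3* (0.32, limma adjusted p = 0.0352), 2 fell, *Mecom* (-0.48, adjusted p = 0.0243) and *Smurf2* (-0.29, adjusted p = 0.0403), and 15 did not pass. None of the 18 passed without Samples 1, 2 or 3, and 1 rose without Samples 4, 5 or 6. *Mecom* kept its call only without Sample 5, and *Smurf2* in no omission. Among 19 other immediate-early genes, *Nr4a1* (1.10, adjusted p = 0.0342) and *Myc* (0.46, adjusted p = 0.0458) rose, *Egr1* fell (-1.66, adjusted p = 0.000576) and 16 did not pass. None of them rose without Samples 2, 3, 4 or 6, and 1 did without Sample 1 and 3 without Sample 5. *Myc* kept its call in no omission. *Egr1*, a zinc finger factor that shares GC-rich sites with the KLFs, was at 11.9 ± 1.82 FPKM in Nogo+/+ and 3.24 ± 0.87 FPKM in Nogo-/- (SD, n = 3 each), with no overlap. Of the 17 other KLF and SP genes looked for, 7 were in the table (*Klf11*, *Klf12*, *Klf16* and *Sp1* to *Sp4*), at 1.05 to 5.99 FPKM, and limma called 0 of them. At an unadjusted p under 0.05 there were 2, *Klf16* (0.27, adjusted p = 0.213) and *Sp1* (-0.16, adjusted p = 0.241).

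The order of the members by level changed between the genotypes. In Nogo+/+ it was *Klf9*, *Klf15*, *Klf2*, *Klf13*, *Klf10*, *Klf6*, *Klf4*, *Klf3*, *Klf7* and *Klf5* from the highest mean FPKM to the lowest, and neighbors from *Klf2* to *Klf4* overlapped in range. In Nogo-/- *Klf2* came second, overlapping with *Klf9* and *Klf15*, and *Klf6* and *Klf4* came before *Klf13*. *Klf10*, *Klf3*, *Klf7* and *Klf5* were the last 4 in that order, and only *Klf10* and *Klf3* overlapped among them. *Klf2* made up 9.93% to 13.7% of the summed FPKM of the 10 members in Nogo+/+ and 12.8% to 26.2% in Nogo-/-, ranges that overlapped through Sample 5.

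Over the 6 libraries, the genes whose log2 level followed each called member most closely were listed from 6989 genes with a mean of at least 5 FPKM, as a description of 6 points that fall into the 2 genotypes. For *Klf2* they were *Gtf2h3* (Pearson r = 0.998), *Ccn2* (0.993) and *Smim26* (0.991). For *Klf4* they were *Vwa7* (0.992), *Taf10* (0.988) and *Cmc1* (0.981). For *Klf6* they were *Ciart*, a clock repressor (0.995), *Lrrc8a*, a volume-regulated anion channel subunit (0.994), and *Cebpd* (0.992). Their means were 0.739, 4.46 and 2.86 FPKM in Nogo+/+ and 16.3, 6.20 and 9.58 FPKM in Nogo-/-. They thus reached the minimum of 5 FPKM only through the group where *Klf6* is also high, which favors a high r in advance. *Tsc22d4* (0.994), *Kpna2* (0.989) and *Saraf* (0.985) came closest to *Klf9*, and *Rpl14* (0.995), *Art1* (0.992) and *Hsp90b1* (0.990) to *Klf15*. The same limit holds for *Kpna2*, at a mean of 4.48 FPKM in Nogo+/+ and 7.14 FPKM in Nogo-/-.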

How the data were processed

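Polyadenylated RNA of 6 gastrocnemius muscles, 3 per genotype and described as biological replicates, had been sequenced as stranded libraries on an Illumina HiSeq system. Per the submitters' processing notes and the study's methods, the authors used CASAVA 1.8.2, trimmed with cutadapt 1.4.2, aligned to GRCm38.p6 with STAR 2.6.1, quantified genes with Cufflinks 2.2.1 and deposited FPKM for genes that reached 1 FPKM in at least 1 library. A further 6 columns of the authors' normalized log2 values were not used. FPKM are not counts, so no count test was run.

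Here the FPKM of 12353 genes were quantile normalized, put on the scale log2(FPKM + 1) and compared between genotypes in limma 3.58.1 under R 4.3.3 (eBayes with trend after lmFit, no covariates, Benjamini-Hochberg over 12353 genes, threshold 0.05). Log2 differences on this scale understate those of low genes. Levels in the text are the FPKM as deposited. The study's own permutation procedure was not run. Depth was taken from genes with 1 transcript, of which 95.2% to 96.3% of low values lay within 0.1 of a whole fragment number (20% by chance). Fragment numbers and their errors cover counting error only. Gene models and coding sequences were those of GENCODE M21 (GRCm38), and promoters those of RefSeq. Zinc fingers were found as 2 cysteines and 2 histidines at the C2H2 spacing.

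The members and gene lists were chosen with earlier results of these data known, so counts over them are descriptions. Named genes are the 10 members, the other KLF and SP genes, the 3 with the smallest p of each list, the 3 most correlated with each called member, *Rtn4* and marker genes. Others (*Map3k3*, *Nos3*, *Thbd*, *Edn1*, *Fkbp5*, *Nr3c1*, *Bcat2*, *Tsc22d3*) were named after their values were seen. A gene that this rule takes in is not reported here but stays in the counts. Alternatives were no quantile normalization, sample weights, limma without the trend, a minimum of 1 on the mean FPKM, 0.1 as pseudocount and the omission of each library. Analyses used Python 3.11.15, NumPy 2.4.6, pandas 2.3.3, SciPy 1.17.1 and matplotlib 3.10.9.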

Additional observations from a re-analysis of the deposited data

How the results depend on the processing

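Of the 10 members, 5 passed as higher without quantile normalization, with 0.1 as pseudocount and with a minimum of 1 on the mean FPKM, 4 with sample weights, 3 in limma without the trend and between 1 and 4 when 1 library was left out (3 without Samples 1 or 4, 2 without Samples 2 or 6, 1 without Sample 3 and 4 without Sample 5). Over all genes the counts higher and lower fell to 125 and 176 without Sample 1, 83 and 105 without Sample 2, 84 and 108 without Sample 3, 145 and 233 without Sample 4, 196 and 238 without Sample 5 and 194 and 226 without Sample 6. None of the 10 members passed as lower under any of these alternatives. Genes called over the 9 lists, members not counted, numbered 40, and between 22 and 42 with 1 library left out (26, 22 and 23 without Samples 1, 2 and 3). Without quantile normalization 302 genes of the table were higher and 234 lower, against 233 and 340 with it, and the median log2 difference of all genes moved from -0.01 to 0.03. Single differences of members kept their direction under all 11 alternatives but for *Klf7*, between -0.072 and 0.0086 with 1 library left out (0.0086 without Sample 1). Of the 55 values of members with a call, 18 lost it. The cause was not tested. No paired analysis was possible because the columns carry no replicate number.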
